A study of Mus musculus with 15 samples.

Results

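Interferon-stimulated genes are the genes that a cell turns on when interferon binds its receptors. A set of 40 such genes was read by name from a count table of 24015 mouse genes, and all 40 were found and tested. The table covers 15 RNA-seq libraries in 5 groups of 3 biological replicates. Every library was made from regulatory T cells (Tregs), sorted as CD45+CD3+CD4+YFP+ from adult C57BL/6 mice that carry Foxp3 cre-eyfp, an allele that makes the Foxp3 gene express Cre recombinase and a yellow fluorescent protein. Wild-type (WT) Tregs, which carry this allele, were taken at 3 places: untreated skin, MC903-treated skin and the lymph nodes that drain skin (LN; superficial and deep axillary). Tregs of Foxp3 cre-eyfp Rora fl/fl mice, called cKO here, were taken from both kinds of skin, and no cKO LN group was analysed here. Rora encodes a nuclear receptor, and Cre is meant to remove part of it in cells that express Foxp3. MC903, an analogue of vitamin D, causes skin inflammation and was given as 4 applications to the ears in ethanol. Untreated skin was dorsal skin with ears and MC903-treated skin was ears alone, so site and treatment cannot be told apart. Skin was digested for 90 minutes with enzymes, while no digestion is stated for LN, so tissue and digestion cannot be told apart either.

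Type I interferons (alpha and beta) bind the receptor made of Ifnar1 and Ifnar2, and the kinases Jak1 and Tyk2 then activate STAT proteins, among them Stat2. This joins Irf9 in a complex that binds the interferon-stimulated response element (ISRE). Interferon gamma binds Ifngr1 and Ifngr2, and Jak1 and Jak2 pass the signal to factors that bind a gamma-activated site (GAS). The products include sensors of viral RNA and DNA, enzymes that block viral translation, the ubiquitin-like tag Isg15, and GTPases that attack the vacuoles of intracellular microbes. Usp18 takes Isg15 off proteins and also dampens signalling from the type I receptor.

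RefSeq promoter windows (GRCm38.p6) were matched by symbol for 31 of the 40 genes. The letters GAAANNGAAA, an ISRE core, were searched on both strands of each window, from 250 bases before the start of the gene to 50 after it. They stood in the windows of 16 of the 31 genes, against 3.99% of all 27025 genes with a window. A GAS core, TTCNNNGAA, reads the same on both strands and stood in 9 of the 31, against 9.55% of all genes. Such matches describe letters and not bound sites. Below are the 160 bases before the start for 7 genes, chosen as examples of genes that behaved differently in the results: Ifit1, Ifit3 and Oas1a were low in skin, Isg15, Gbp3 and Igtp were higher in untreated skin, and Irf1 fell with MC903. Each is written 5′ to 3′ on the gene's strand, with ISRE and GAS cores in capitals, and overlapping cores run on as 1 stretch. They lie at chr19:34640729-34640888 (plus strand) for Ifit1, chr19:34583369-34583528 (plus) for Ifit3, chr5:120907526-120907685 (minus) for Oas1a, chr4:156200819-156200978 (minus) for Isg15, chr3:142559884-142560043 (plus) for Gbp3, chr11:58199396-58199555 (plus) for Igtp and chr11:53769854-53770013 (plus) for Irf1. Gbp3 and Irf1 have 2 windows each, of which 1 is shown.
Ifit1: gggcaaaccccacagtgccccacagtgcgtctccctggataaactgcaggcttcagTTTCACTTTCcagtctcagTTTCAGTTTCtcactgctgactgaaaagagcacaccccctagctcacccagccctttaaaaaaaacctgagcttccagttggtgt
Ifit3: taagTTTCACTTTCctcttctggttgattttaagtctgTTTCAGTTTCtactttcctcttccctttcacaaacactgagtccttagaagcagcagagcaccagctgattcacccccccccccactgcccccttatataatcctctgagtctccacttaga
Oas1a: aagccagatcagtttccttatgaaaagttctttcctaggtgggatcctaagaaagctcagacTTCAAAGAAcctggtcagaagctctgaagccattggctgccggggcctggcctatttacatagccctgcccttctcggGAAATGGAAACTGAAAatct
Isg15: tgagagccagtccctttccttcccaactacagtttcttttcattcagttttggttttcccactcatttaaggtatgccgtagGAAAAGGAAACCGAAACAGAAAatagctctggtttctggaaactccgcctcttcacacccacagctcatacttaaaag
Gbp3: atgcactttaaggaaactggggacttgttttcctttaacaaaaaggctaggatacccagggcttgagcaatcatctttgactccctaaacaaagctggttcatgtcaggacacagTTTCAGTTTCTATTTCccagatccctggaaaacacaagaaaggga
Igtp: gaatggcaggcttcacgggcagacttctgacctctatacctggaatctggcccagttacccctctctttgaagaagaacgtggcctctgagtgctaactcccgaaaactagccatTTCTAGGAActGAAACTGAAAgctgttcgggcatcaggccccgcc
Irf1: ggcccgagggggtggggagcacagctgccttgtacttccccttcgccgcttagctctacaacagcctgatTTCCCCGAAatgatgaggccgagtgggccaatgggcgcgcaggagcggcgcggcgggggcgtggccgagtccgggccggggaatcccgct

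Ifit1, Ifit3 and Gbp3 carry their ISRE cores on the opposite strand, so these read as TTTC forms here. Isg15 has 3 overlapping ISRE cores from base -78, and Oas1a has 2 from base -20 and a GAS core at -98. Gbp3 has 2 overlapping ISRE cores, at -45 and -39. Igtp pairs an ISRE core at -34 with a GAS core at -45, and Irf1 has a GAS core at -90 with no ISRE core in its window. An ISRE core was thus present both in genes that were low in skin and in genes that were higher there.

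The libraries held 19774723 to 27745008 counts each. Levels are given as CPM, the counts of a gene per 1000000 counts of the library after scaling by TMM factors, and they compare a gene across libraries, not genes with each other. Foxp3, the defining Treg factor, ran from 16.2 to 41.8 CPM in LN and from 110 to 202 in skin. The 8 Treg markers together summed to 4322 to 5243 CPM in LN and 7833 to 10199 in skin. They did not move as 1: the mean of Ctla4 was 302 CPM in LN and 3473 in WT untreated skin, while Cd3e stood at 1541 and 896, Cd3g at 1338 and 806 and Cd4 at 431 and 272. Markers of other cells also differed: the B cell gene Ms4a1 stood at 23.6 to 104 CPM in LN and at 0 to 0.312 in skin. The 10 B cell markers found summed to 907, 779 and 2512 CPM in LN, 621 to 932 in WT untreated skin, 754 to 1367 in cKO untreated skin, 445 to 502 in WT MC903 skin and 555 to 782 in cKO MC903 skin. Keratinocyte markers summed to 16.9 to 19.2 CPM in LN and 48.8 to 658 in skin, and fibroblast and endothelial markers to 112 to 156 and 48.4 to 582. Such sums can hide opposite moves of single markers. In LN the latter sum was nearly all Pecam1, with means of 132 CPM there and 25.8 in WT untreated skin. Sparc went from 0.178 to 44.8 CPM, Dcn from 0.106 to 25.8 and Fabp4 from 0.0837 to 27.2. Sfn was the largest keratinocyte part in WT untreated skin, with means of 7.54 CPM in LN and 257 there. The sums for macrophages, dendritic and Langerhans cells were 39.3 to 173 CPM in LN and 128 to 362 in skin, for plasmacytoid dendritic cells 141 to 167 and 85.6 to 139, and for the other lymphocytes (NK, innate lymphoid, CD8 and gamma-delta T cells) 114 to 210 and 40 to 247. Epcam was the largest part of the macrophage, dendritic and Langerhans cell sum in WT untreated skin, with means of 14.6 CPM in LN and 144 there. Bst2 belongs both to the plasmacytoid dendritic cell markers and to the 40 genes. It made up most of the plasmacytoid dendritic cell sum in LN, at 147, 138 and 93.1 CPM.

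Rora itself stood at 58.6, 52.8 and 66.6 CPM in LN, 1327, 1341 and 1510 in WT untreated skin, 822, 1074 and 1199 in cKO untreated skin, 813, 739 and 812 in WT MC903 skin and 632, 492 and 473 in cKO MC903 skin. Every cKO library lay below every WT library of the same treatment. The counts are per gene, so exons that Cre leaves in place still add to them. Over both treatments Rora was lower in cKO (log2 change -0.50 ± 0.10 SE, edgeR adjusted p = 0.0193), while neither treatment alone passed (adjusted p = 0.25 untreated and 0.191 with MC903).

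The first question was how skin Tregs differ from LN Tregs of the same genotype. In WT untreated skin, 31 of the 40 genes were lower than in LN, 3 were higher and 6 did not pass. The test was the quasi-likelihood F test of edgeR, its p-values were adjusted by Benjamini-Hochberg over 13578 genes tested, and the threshold was 0.05. Over all genes tested, 28.8% were called lower and 28.8% higher, which is the background to read these counts against. The median log2 change of the 40 genes was -1.90, against 0.007 over all genes tested. Of the 31 genes called lower, every WT untreated skin library lay below every LN library in 30. The share of all genes that lay apart in this way was not computed, so this count only describes the called genes. Between whole libraries, fewer cells that express a gene and less RNA per cell cannot be told apart.

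**Figure D1:**
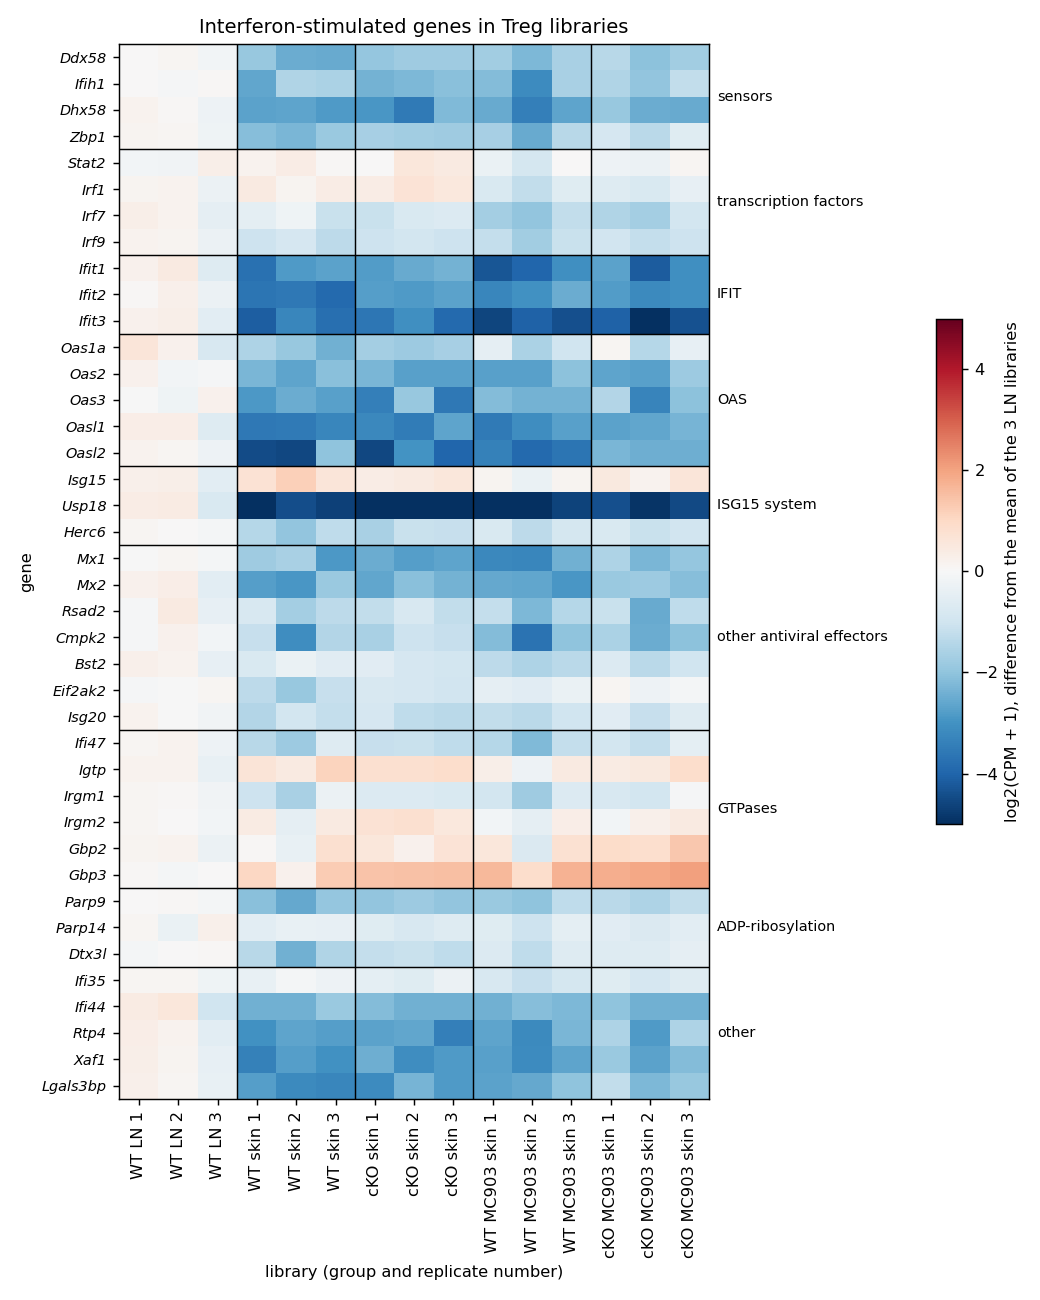
Each row is 1 of the 40 genes, ordered by role, and each column 1 library; colour gives log2(CPM + 1) minus the mean of the 3 LN libraries. The IFIT genes, Oasl1 and Usp18 are below every LN library in all 12 skin libraries, while Gbp3 is above the LN mean in all of them.

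The sensors were all lower in WT untreated skin. Ddx58, which encodes the RNA sensor RIG-I, stood at 95.1, 101 and 84.6 CPM in LN and 24.4, 15.7 and 15.4 in WT untreated skin. Zbp1, a sensor of unusual nucleic acid helices that can start necroptosis, stood at 208, 201 and 162 CPM in LN and 42.3, 38.2 and 51.7 in skin. The skin libraries lay below the LN libraries in both genes, with a 5.06-fold decrease for Ddx58 (log2 -2.34 ± 0.23 SE, edgeR adjusted p = 3.81e-07) and a 4.32-fold decrease for Zbp1 (log2 -2.11 ± 0.25 SE, edgeR adjusted p = 3.01e-06). Ifih1 (MDA5, another RNA sensor; log2 -1.99) and Dhx58 (LGP2, their regulator; log2 -2.90) were also called lower.

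Of the 4 transcription factors, 1 was lower. Irf9, the DNA-binding part of the type I interferon complex, stood at 288, 278 and 209 CPM in LN and 123, 141 and 104 in WT untreated skin, a 2.1-fold decrease (log2 -1.07 ± 0.17 SE, edgeR adjusted p = 6.07e-05). Its partner Stat2 stood at 59.1, 56.8 and 79.5 CPM in LN and 73.8, 84.6 and 67.9 in skin, and the groups overlapped (log2 0.21 ± 0.22 SE, edgeR adjusted p = 0.412). Irf1, a factor induced mainly by interferon gamma, stood at 396, 407 and 295 CPM in LN and 490, 395 and 464 in skin (log2 0.30 ± 0.17 SE, edgeR adjusted p = 0.146). Irf7, which amplifies interferon alpha transcription, stood at 178, 167 and 107 CPM in LN and 106, 125 and 68.2 in skin, again with overlap (log2 -0.59 ± 0.27 SE, edgeR adjusted p = 0.0711). These 3 genes thus did not pass, which does not show that they were equal.

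The IFIT genes, whose proteins bind viral RNA, and the Isg15 protease gene Usp18 were lower as well. Usp18 stood at 188, 193 and 86 CPM in LN and 1.75, 5.75 and 4.79 in WT untreated skin, a 37.9-fold decrease (log2 -5.24 ± 0.42 SE, edgeR adjusted p = 8.15e-08). Ifit1 stood at 138, 163 and 77 CPM in LN and 8.04, 15.9 and 18.2 in skin (log2 -3.17 ± 0.47 SE, edgeR adjusted p = 5.67e-05). All 3 IFIT genes were called, with a median log2 change of -4.05. Ifit2 stood at 44.7, 51.4 and 34.6 CPM in LN and 2.46, 2.74 and 1.94 in skin, an 18.2-fold decrease (log2 -4.19 ± 0.29 SE, edgeR adjusted p = 7.68e-09). Ifit3 stood at 68.7, 72.7 and 39.8 CPM in LN and 2.41, 5.13 and 3.39 in skin (log2 -4.05 ± 0.48 SE, edgeR adjusted p = 3.75e-06), and it has a near-identical neighbour, Ifit3b, with which its reads may have been shared. In none of these genes did a skin library reach the lowest LN library.

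All 5 OAS genes, a family named for enzymes that make the messenger for RNase L, were lower, with a median log2 change of -3.74. Oas1a stood at 53.3, 41.3 and 19.6 CPM in LN and 11.5, 8.84 and 5.92 in WT untreated skin (log2 -2.12 ± 0.43 SE, edgeR adjusted p = 6.86e-04). Oasl2 stood at 27.9, 26.3 and 20.5 CPM in LN and 0.142, 0.0884 and 5.44 in skin (log2 -3.74 ± 1.18 SE, edgeR adjusted p = 0.0162), so 1 skin library held most of its skin counts. Oasl1 had the lowest estimate of the 40 genes (log2 -5.98 ± 0.84 SE), at 7.47 to 15.4 CPM in LN and 0.0946 to 0.377 in skin. Oas1a belongs to a cluster of closely similar copies, so its reads may be split among them in an unknown way.

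The other antiviral effectors were called lower in 7 of 7 cases. Eif2ak2 (PKR, a kinase that stops translation when it binds double-stranded RNA) stood at 35.3, 36.2 and 39.3 CPM in LN and 14.4, 9.33 and 16 in WT untreated skin (log2 -1.48 ± 0.19 SE, edgeR adjusted p = 7.51e-06). Rsad2 (viperin, which makes a chain-ending nucleotide) stood at 14.6, 20.9 and 11.2 CPM in LN and 8.18, 3.94 and 5.44 in skin (log2 -1.41 ± 0.45 SE, edgeR adjusted p = 0.0145). Bst2 (tetherin, which holds budding virus at the membrane) stood at 147, 138 and 93.1 CPM in LN and 72.4, 96.7 and 83.2 in skin. Bst2 was the 1 gene called lower whose groups overlapped (log2 -0.58 ± 0.19 SE, edgeR adjusted p = 0.0173). Mx1, an antiviral GTPase that is known to be defective in C57BL/6 mice, stood at 8.38, 9.39 and 8.03 CPM in LN and 1.8, 2.12 and 0.323 in skin (log2 -2.60 ± 0.94 SE, edgeR adjusted p = 0.0278). The calls of Rsad2, Bst2 and Mx1 were lost when some single libraries were left out, with adjusted p-values of up to 0.0693, 0.083 and 0.0837.

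Genes of other roles were called lower as well. Xaf1, a partner of an apoptosis inhibitor, stood at 95.8, 83.9 and 57.3 CPM in LN and 6.57, 10.6 and 8.72 in WT untreated skin (log2 -3.19 ± 0.29 SE, edgeR adjusted p = 1.88e-07). Lgals3bp, a secreted galectin-binding protein, stood at 188, 172 and 124 CPM in LN and 22.6, 16.8 and 15.7 in skin (log2 -3.13 ± 0.30 SE, edgeR adjusted p = 3.81e-07). Parp9, which acts with the ubiquitin ligase Dtx3l, stood at 130, 136 and 121 CPM in LN and 29.7, 20.8 and 33 in skin (log2 -2.21 ± 0.20 SE, edgeR adjusted p = 2.04e-07). Dtx3l went from 86, 94.6 and 96.9 CPM to 34.4, 16.7 and 31.9 (log2 -1.74 ± 0.22 SE, edgeR adjusted p = 7.72e-06). Herc6, the ligase that attaches Isg15 in mice (log2 -1.58), Rtp4, a regulator of interferon responses (log2 -2.90), Isg20, an exonuclease (log2 -1.20), Cmpk2 (log2 -1.81), Mx2 (log2 -3.71), Oas2 (log2 -4.20), Oas3 (log2 -3.03), Parp14 (log2 -0.47) and Ifi44 (log2 -4.92) were called lower too. The calls of Oas2, Parp14 and Ifi44 were lost in 8, 5 and 5 of 23 alternatives, with adjusted p-values of up to 0.117, 0.138 and 0.0703. Oas2 stood at 0.331, 0.0442 and 0.538 CPM in WT untreated skin. Ifi44 was at 0 in 2 of 3 WT untreated skin libraries and, on the 12 skin libraries alone, would be the 1 gene of the 40 to miss the filter on low counts. Ifi35 stood at 172 to 216 CPM in LN and 154 to 187 in skin and did not pass.

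The interferon-inducible GTPases were mixed: 2 were higher, 2 lower and 2 did not pass. Gbp3, a guanylate-binding protein, stood at 114, 102 and 109 CPM in LN and 222, 127 and 265 in WT untreated skin, a 1.89-fold increase (log2 0.92 ± 0.23 SE, edgeR adjusted p = 0.00284). Igtp (Irgm3), an immunity-related GTPase, stood at 553, 552 and 375 CPM in LN and 752, 670 and 1046 in skin (log2 0.74 ± 0.21 SE, edgeR adjusted p = 0.0064). Skin libraries lay above all LN libraries in both. Ifi47 went the other way, from 601, 645 and 475 CPM in LN to 217, 159 and 360 in skin (log2 -1.23 ± 0.29 SE, edgeR adjusted p = 0.00229). Irgm1, which regulates the other immunity-related GTPases, stood at 244, 240 and 201 CPM in LN and 111, 72.7 and 183 in skin (log2 -0.90 ± 0.33 SE, edgeR adjusted p = 0.0294), a call lost without any 1 of 4 single libraries (adjusted p up to 0.11). Gbp2 stood at 132, 135 and 98.8 CPM in LN and 126, 94.3 and 210 in skin (log2 0.23 ± 0.34 SE, edgeR adjusted p = 0.582), and its estimate was -0.15 without replicate 3 of WT untreated skin. That library was the highest and replicate 2 the lowest of its group in all 6 GTPases.

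Isg15, the tag itself, was the third gene called higher. It stood at 67.8, 70.8 and 39.4 CPM in LN and 96.5, 133 and 88.6 in WT untreated skin, a 1.79-fold increase with no overlap (log2 0.84 ± 0.21 SE, edgeR adjusted p = 0.00334). Usp18, the protease that removes Isg15, and Herc6, the ligase that attaches it, were both lower in the same libraries.

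**Figure D2:**
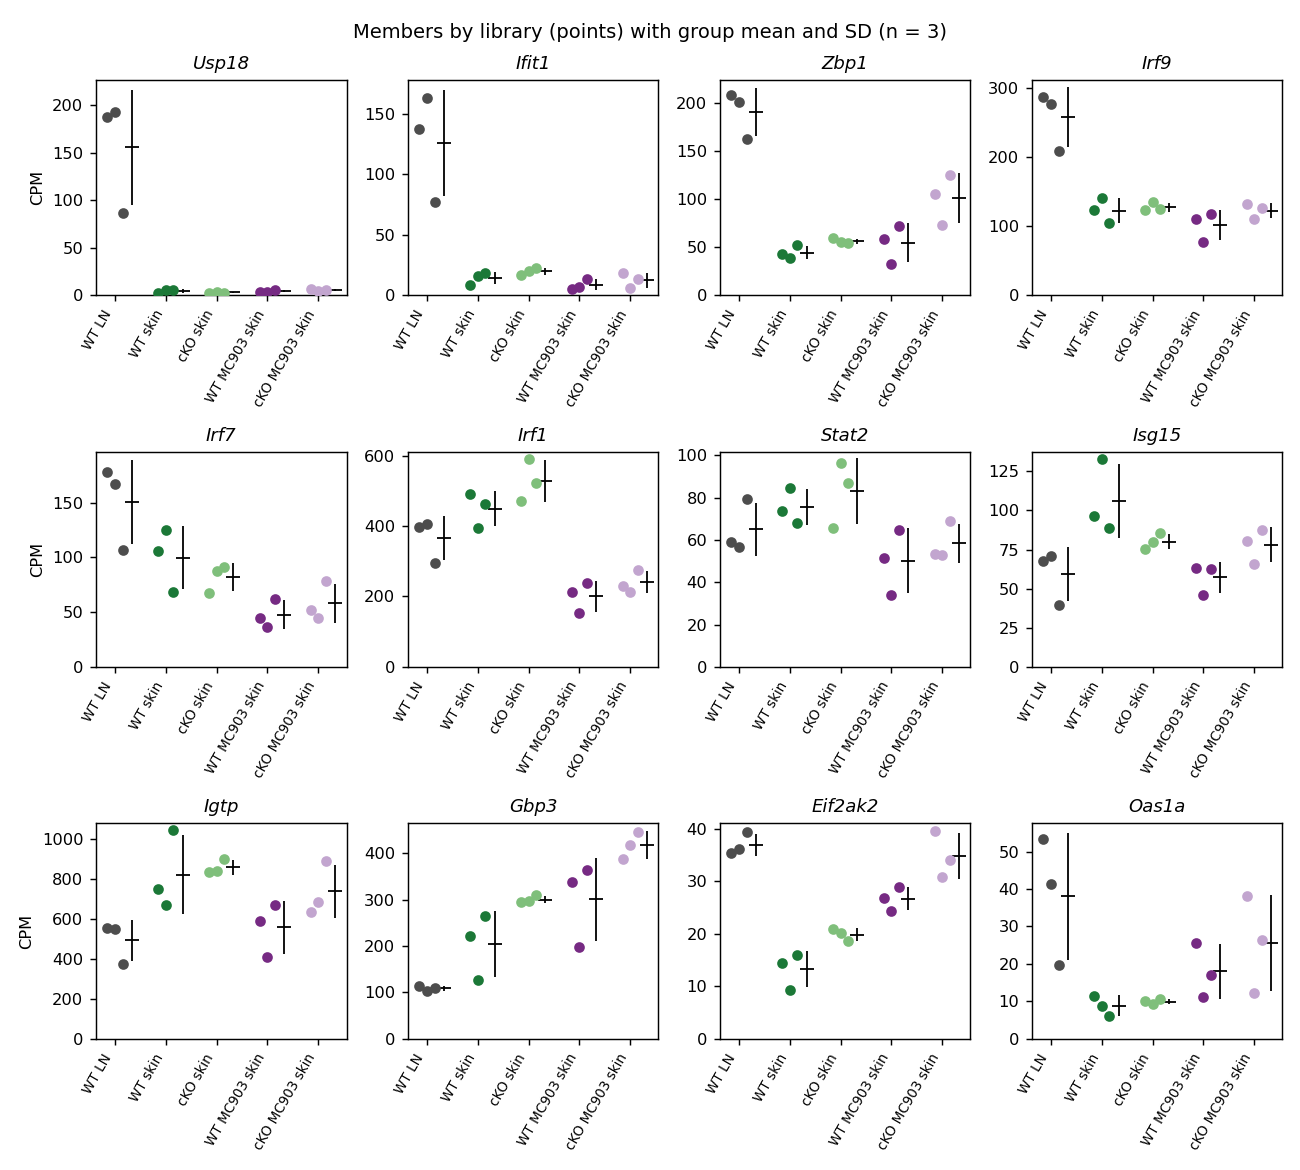
Points are the CPM of 12 of the genes in each library and the bars beside them are the group mean ± SD (n = 3). Usp18 in skin does not exceed 6.05 CPM, Gbp3 is lowest in LN at 102 to 114 CPM, and Irf1 in MC903 skin does not exceed 275 CPM while untreated skin starts at 395.

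Replicate 3 of LN held the most B cell transcripts and was the lowest LN library in 32 of the 40 genes. The part of other cells in the skin to LN differences was not tested. With LN replicate 3 and replicate 2 of WT MC903 skin both left out, which was chosen with the data seen, 30 genes were lower and 3 higher in WT untreated skin. Over all 13914 genes of that fit, 3403 were lower and 3728 higher. In the authors' deposited table of LN against skin, 3 of the genes are higher in skin, 30 are lower and 6 are not called, each with the same call as here, and Dtx3l has no adjusted p there.

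The same LN libraries were also set against WT MC903 skin. Here 34 of the 40 genes were lower than in LN, 1 was higher and 5 did not pass, against 24.5% of all genes tested called lower and 26.5% higher. The median log2 change was -1.75, against 0.023 over all genes. Without LN replicate 3 and WT MC903 skin replicate 2 the count of lower genes was 28, against 2517 of 13914 genes in that fit. In the main fit 3332 of 13578 genes were lower, so the count over all genes fell too. Both comparisons use the same LN libraries, so their likeness is partly built in and is not a result.

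Usp18 stood at 3.66, 2.9 and 4.93 CPM in WT MC903 skin, a 40.6-fold decrease from LN (log2 -5.34 ± 0.42 SE, edgeR adjusted p = 9.38e-08). Ifit1 stood at 5.23, 6.83 and 13.5 CPM (log2 -3.89 ± 0.48 SE, edgeR adjusted p = 1.66e-05), and Ifit3 at 1.46, 2.56 and 1.86 (log2 -4.94 ± 0.50 SE, edgeR adjusted p = 1.04e-06). Ifit2 stood at 3.63, 4.42 and 6.8 CPM (log2 -3.14 ± 0.27 SE, edgeR adjusted p = 1.55e-07). All of these libraries lay far below LN. Xaf1, at 10.8, 7.8 and 11.7 CPM, and Parp9, at 35, 31 and 52.4, were lower than LN as well (edgeR adjusted p = 5.02e-07 and 3.82e-06). Ddx58 stood at 27.6, 18.9 and 29.5 CPM (edgeR adjusted p = 4.45e-06) and Lgals3bp at 24.2, 26.4 and 39.1 (edgeR adjusted p = 5.64e-06).

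Irf1, Irf7 and Ifi35, which did not pass in untreated skin, were lower than LN in WT MC903 skin, with log2 changes of -0.87, -1.66 and -0.94. Isg15 and Igtp, higher in untreated skin, did not pass here. Isg15 stood at 62.9, 46 and 62.5 CPM (log2 -0.05 ± 0.21 SE, edgeR adjusted p = 0.848) and Igtp at 591, 410 and 672 (log2 0.18 ± 0.20 SE, edgeR adjusted p = 0.489). Gbp3 was the gene called higher, at 339, 198 and 365 CPM and 2.78-fold above LN (log2 1.48 ± 0.23 SE, edgeR adjusted p = 7.71e-05). Oas1a and Eif2ak2 were called lower with adjusted p-values of 0.0411 and 0.0423, and the alternatives took these to at most 0.177 and 0.262.

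**Figure D3:**
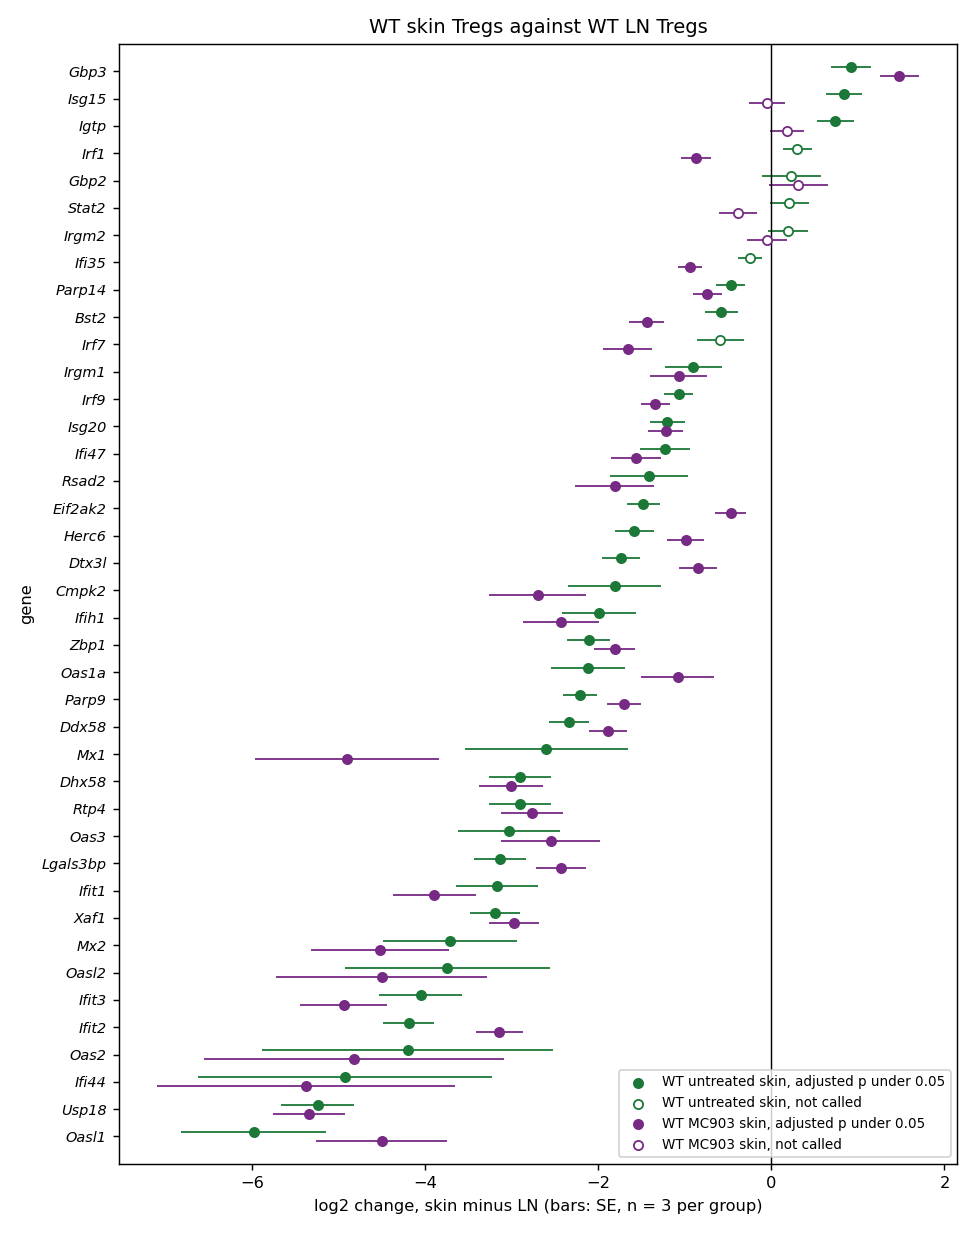
Points are log2 changes from LN and bars are ± 1 SE (n = 3 per group), for WT untreated skin in green and WT MC903 skin in purple; filled points passed an adjusted p of 0.05. Most genes lie left of 0 in both, with Oasl1 and Usp18 at the bottom and Gbp3 the 1 gene filled and right of 0 in both.

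MC903 was then compared with untreated skin within each genotype. In WT, 3 of the 40 genes were higher with MC903 and 5 lower, against 5.03% and 5.44% of all genes tested. In cKO, 4 were higher and 1 was lower, against 5.96% and 5.3%. The counts within a genotype thus rest on few genes. Averaged over both genotypes, 8 genes were higher and 7 lower, against 12.8% and 12.3%, and the median log2 change was 0.19 against 0.007 over all genes. The genes called were thus split in direction. The summed markers of these other lymphocytes (NK, innate lymphoid, CD8 and gamma-delta T cells) were 82.1 to 112 CPM in WT untreated skin, 40 to 52.6 in WT MC903 skin, 180 to 247 in cKO untreated skin and 127 to 185 in cKO MC903 skin. Nkg7 was the largest part of these sums, with means of 85.5, 27.6, 191 and 104 CPM in that order. Ncr1 was at 0 in all skin libraries, and Eomes did not exceed 0.533 CPM there. Gzma means went the other way with MC903, from 0.612 to 5.94 CPM in WT and from 2.08 to 23.7 in cKO. In the same order of groups, keratinocyte markers summed to 295 to 658, 101 to 435, 232 to 433 and 48.8 to 201 CPM. The part of these cells in the results was not tested.

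Irf1 fell in both genotypes. It stood at 490, 395 and 464 CPM in WT untreated skin and 213, 152 and 237 with MC903, a 2.24-fold decrease (log2 -1.16 ± 0.17 SE, edgeR adjusted p = 6.88e-04). In cKO it went from 472, 590 and 523 CPM to 231, 214 and 275 (log2 -1.14 ± 0.17 SE, edgeR adjusted p = 0.00101). No MC903 library reached the lowest untreated one. Irf1 was lower under all alternatives run for both comparisons.

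Irf7 fell in WT, from 106, 125 and 68.2 CPM to 44.6, 36.4 and 61.9 (log2 -1.07 ± 0.27 SE, edgeR adjusted p = 0.0219). In cKO it stood at 67.4, 87.3 and 91.4 CPM and then 51.6, 44.4 and 78.4, with overlap (log2 -0.50 ± 0.27 SE, edgeR adjusted p = 0.255). Isg15 fell in WT, from 96.5, 133 and 88.6 CPM to 62.9, 46 and 62.5 (log2 -0.89 ± 0.21 SE, edgeR adjusted p = 0.015). In cKO it stood at 75.3, 79.6 and 85.3 CPM and then 80.7, 65.7 and 87.5 (log2 -0.04 ± 0.21 SE, edgeR adjusted p = 0.935). Bst2 fell in WT, from 72.4, 96.7 and 83.2 CPM to 49.2, 42 and 48.1 (log2 -0.86 ± 0.19 SE, edgeR adjusted p = 0.0112). Ifi35, a leucine zipper protein, fell in WT from 154, 187 and 167 CPM to 116, 89.4 and 109 (log2 -0.69 ± 0.14 SE, edgeR adjusted p = 0.00581). In cKO, Bst2 had a log2 change of -0.21 ± 0.19 SE (edgeR adjusted p = 0.529) and Ifi35 of -0.24 ± 0.14 SE (edgeR adjusted p = 0.296).

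Eif2ak2 rose in both genotypes. In WT it went from 14.4, 9.33 and 16 CPM to 26.7, 24.4 and 28.8 with MC903, a 2.01-fold increase (log2 1.01 ± 0.19 SE, edgeR adjusted p = 0.00355). In cKO it went from 20.8, 20.1 and 18.5 CPM to 39.5, 30.8 and 34 (log2 0.81 ± 0.19 SE, edgeR adjusted p = 0.0116). Dtx3l rose in WT, from 34.4, 16.7 and 31.9 CPM to 57.4, 38.2 and 58.2 (log2 0.89 ± 0.22 SE, edgeR adjusted p = 0.0181). Ifit2 also rose in WT, from 2.46, 2.74 and 1.94 CPM to 3.63, 4.42 and 6.8 (log2 1.05 ± 0.27 SE, edgeR adjusted p = 0.0196), and remained far below LN. In the cKO groups Ifit2 stood at 5.55, 5.26 and 5.98 CPM and then 5.4, 3.88 and 4.2 (log2 -0.32 ± 0.26 SE, edgeR adjusted p = 0.472). With only the 2 compared groups in the fit, no gene of the 40 was higher in WT, against 218 of 12351 genes. Without replicate 3 of WT MC903 skin 1 was, against 380 of 14040 genes. The count of lower genes in WT was 3 without replicate 2 of WT untreated skin or replicate 2 of WT MC903 skin, against 516 of 14011 and 487 of 14024 genes.

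The other genes that rose in cKO were Zbp1, Lgals3bp and Oas1a. Zbp1 went from 58.9, 55.4 and 54 CPM to 105, 73.1 and 125 (log2 0.85 ± 0.24 SE, edgeR adjusted p = 0.0326). Lgals3bp went from 17, 31.1 and 21.5 CPM to 66.6, 32.7 and 41.5 (log2 1.02 ± 0.28 SE, edgeR adjusted p = 0.0304). Oas1a went from 10, 9.18 and 10.5 CPM to 38.1, 12.3 and 26.4 (log2 1.37 ± 0.42 SE, edgeR adjusted p = 0.0487). None of the 3 passed in WT, where Oas1a had a log2 change of 1.04 ± 0.42 SE (edgeR adjusted p = 0.135) and Zbp1 of 0.31 ± 0.24 SE (edgeR adjusted p = 0.464). The count of higher genes in cKO was 0 in place of 4 without replicate 3 of untreated cKO skin or replicate 1 of cKO MC903 skin. All genes called higher in these fits were 343 of 14057 and 502 of 14076. The count was 1 without replicate 1 of untreated cKO skin or replicate 3 of cKO MC903 skin, against 1054 of 14006 and 439 of 14024 genes. The count of lower genes was 2 without replicate 1 of cKO MC903 skin, against 478 of 14076 genes.

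In the average over genotypes, Oas1a (log2 1.20 ± 0.30 SE), Eif2ak2 (0.91 ± 0.13), Lgals3bp (0.86 ± 0.20), Dtx3l (0.76 ± 0.15), Zbp1 (0.58 ± 0.17), Parp9 (0.53 ± 0.14), Gbp3 (0.52 ± 0.16) and Herc6 (0.47 ± 0.15) rose with MC903. Irf1 (log2 -1.15 ± 0.12 SE), Ifit3 (-1.13 ± 0.33), Irf7 (-0.78 ± 0.19), Stat2 (-0.55 ± 0.15), Bst2 (-0.53 ± 0.14), Isg15 (-0.47 ± 0.15) and Ifi35 (-0.46 ± 0.10) fell. Of the 4 transcription factors, 3 were thus called lower and none higher. Stat2 stood at 73.8, 84.6 and 67.9 CPM in WT untreated skin and 51.4, 34.2 and 64.8 with MC903, and at 65.8, 96.2 and 87.1 and then 53.3, 52.9 and 69.1 in cKO (edgeR adjusted p = 0.0159 for the average). Parp9 stood at 20.8 to 35.8 CPM in the 6 untreated and 31 to 54.4 in the 6 MC903 libraries (edgeR adjusted p = 0.0102). The counts were 5 higher without replicate 3 of WT MC903 skin or of cKO MC903 skin, against 1421 of 14040 and 1447 of 14024 genes. Without the former, 11 were lower, against 1399 of 14040 genes. Replicate 2 was the lowest library in 31 of the 40 genes in WT MC903 skin and also in 31 in cKO MC903 skin.

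**Figure D4:**
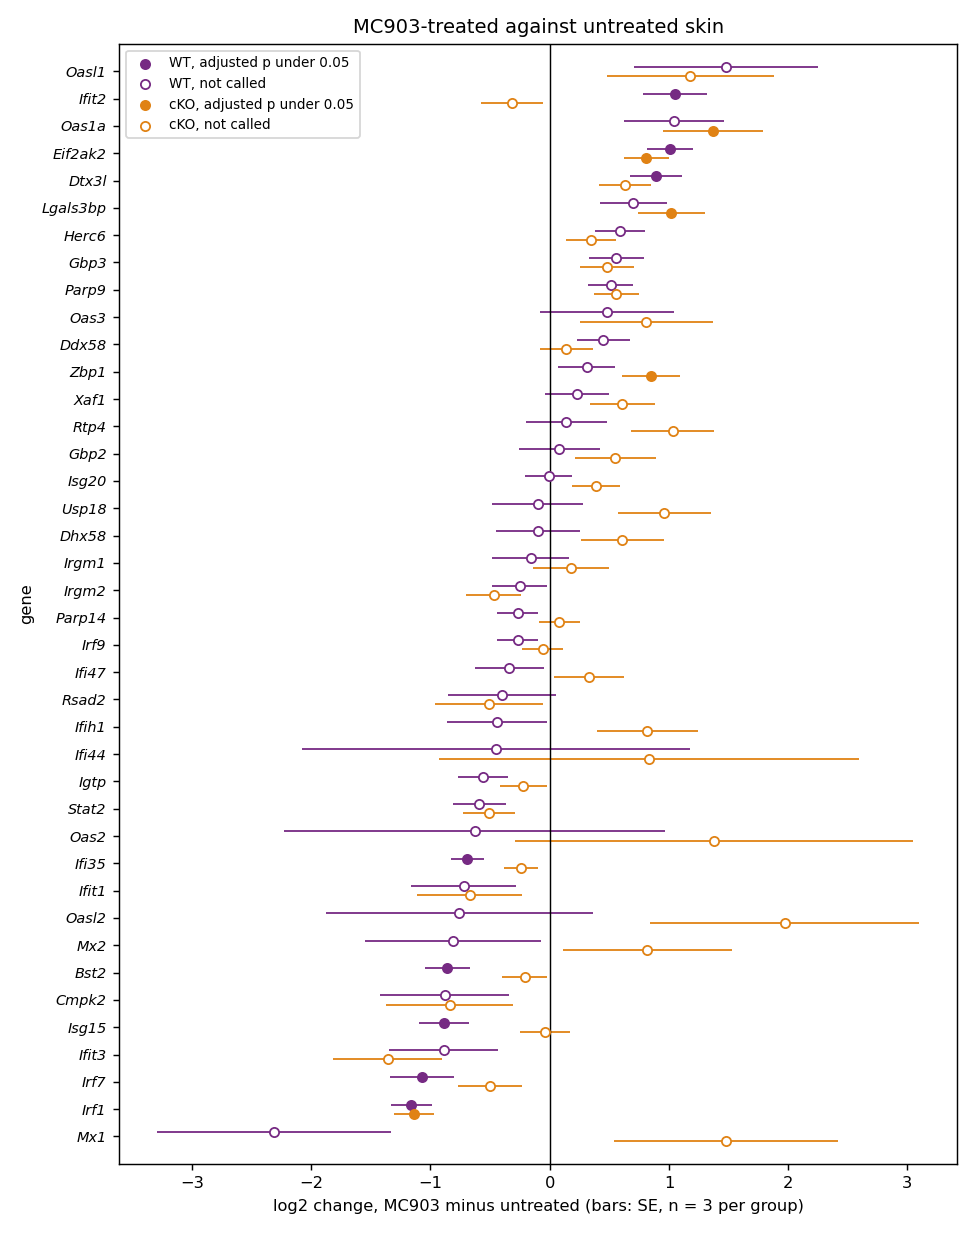
Points are log2 changes with MC903 and bars are ± 1 SE (n = 3 per group), for WT in purple and cKO in orange; filled points passed an adjusted p of 0.05. Irf1 and Eif2ak2 are filled in both genotypes, on opposite sides of 0, and most other genes are open.

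The comparison of cKO with WT asks how these genes stand when Rora is floxed in Foxp3-expressing cells. In untreated skin 1 of the 40 genes was higher and none lower, against 0.398% and 0.405% of all genes tested. The gene was Ifit2, at 2.46, 2.74 and 1.94 CPM in WT and 5.55, 5.26 and 5.98 in cKO, a 2.34-fold increase with no overlap (log2 1.23 ± 0.27 SE, edgeR adjusted p = 0.0387). This call was lost in 13 of 23 alternatives, with adjusted p-values of up to 0.41, among them the fits without any 1 of the 6 untreated skin libraries, LN replicates 1 and 2 and cKO MC903 skin replicates 2 and 3. Ifit1 and Ifit3 had log2 differences of 0.48 ± 0.44 SE and 0.25 ± 0.44 SE and did not pass.

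In MC903 skin no gene of the 40 was called by edgeR, against 0.081% of all genes called higher and 0.177% lower. DESeq2 called 1 of the 40 higher, against 69 of 13328 genes. Without replicate 3 of WT MC903 skin edgeR also called 1 higher, against 7 of 14040 genes. Estimates were above 0 in 37 of the 40 genes, with a median log2 difference of 0.43 against -0.006 over all genes tested. Every cKO library lay above every WT library in 11 of the genes and below in 0, against 7.81% and 8.19% of all genes. Without LN replicate 3 and WT MC903 skin replicate 2, the latter being the lowest of its group in most of these genes, the median was 0.25 and 35 estimates were above 0. Markers of other cells also differed between the cKO and WT MC903 libraries. Those of NK, innate lymphoid, CD8 and gamma-delta T cells summed to 127 to 185 CPM against 40 to 52.6 in WT. Those of B cells summed to 555 to 782 against 445 to 502, and those of macrophages, dendritic and Langerhans cells to 217 to 362 against 128 to 204. The plasmacytoid dendritic cell sum was 130 to 139 against 85.6 to 108, nearly all of it Bst2 and Runx2. Bst2, itself 1 of the 40 genes, stood at 77.1, 48.3 and 61.6 CPM in cKO and 49.2, 42 and 48.1 in WT. Runx2 stood at 51.7, 74.3 and 67.7 CPM in cKO and 56.5, 45.8 and 32 in WT. This sum thus does not show a difference in those cells apart from the 40 genes. The largest part of the sum for NK, innate lymphoid, CD8 and gamma-delta T cells was Nkg7, at 104, 85.8 and 123 CPM in cKO and 28.2, 29.6 and 25 in WT. Keratinocyte markers summed to 48.8, 55.8 and 201 CPM in cKO and 356, 101 and 435 in WT. Fibroblast and endothelial markers summed to 196 to 582 CPM in cKO and 150 to 426 in WT. Their part in the differences was not tested.

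The smallest p in MC903 skin belonged to Zbp1, at 58.5, 32.6 and 72.3 CPM in WT and 105, 73.1 and 125 in cKO (log2 0.89 ± 0.24 SE, edgeR adjusted p = 0.218). Next was Mx2, an antiviral GTPase, at 0.449, 0.409 and 0.155 CPM in WT and 1.34, 1.45 and 0.954 in cKO (log2 1.87 ± 0.74 SE, edgeR adjusted p = 0.593). The cKO libraries were the higher ones in both genes without either passing. Gbp2 stood at 180, 72.2 and 203 CPM in WT and 226, 216 and 307 in cKO, and Gbp3 at 339, 198 and 365 and then 387, 419 and 447 (edgeR adjusted p = 0.767 and 0.741). Ifi47 stood at 209, 123 and 250 CPM in WT and 299, 246 and 401 in cKO, and Irgm1 at 119, 65.5 and 142 and then 130, 119 and 221 (edgeR adjusted p = 0.641 and 0.868). Usp18, which stood at 2.9 to 4.93 CPM in WT and 3.93 to 6.05 in cKO, differed by log2 0.43 ± 0.38 SE (edgeR adjusted p = 0.959).

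Averaged over both treatments no gene of the 40 was called by edgeR, against 0.884% of all genes called higher and 0.862% lower. Estimates were above 0 in 36 of the 40, with a median of 0.30 against -0.009. Eif2ak2 (log2 0.48 ± 0.13 SE, edgeR adjusted p = 0.0876) and Zbp1 (0.62 ± 0.17, adjusted p = 0.0892) came closest. DESeq2 called 3 of the 40 higher, against 278 of 13662 genes. By edgeR the count was 1 without replicate 3 of WT untreated skin, replicate 3 of WT MC903 skin or replicate 2 of cKO MC903 skin. All genes called higher in these fits were 98 of 13993, 103 of 14040 and 90 of 14044. The difference between the genotypes in their MC903 response was tested by an interaction term. By edgeR and by DESeq2 it called 0 of the 40 genes in either direction. Over all genes edgeR called 0%, and DESeq2 called 13 higher and 8 lower of 14669. The smallest p was that of Ifit2 (log2 -1.37 ± 0.37 SE, edgeR adjusted p = 0.711), followed by Isg15 (0.85 ± 0.30, adjusted p = 0.866). So the calls that Isg15, Irf7, Bst2 and Ifi35 reached in WT alone are not shown to differ between genotypes. The same WT untreated libraries also enter the comparison with LN, MC903 in WT, genotype in untreated skin and the interaction. For Ifit2, at 1.94 to 2.74 CPM in these libraries, and for Isg15, such results are thus not separate findings.

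The upstream pathway was read from the same libraries, beginning with the ligands. Of 21 interferon genes listed, 16 had 0 counts in all 15 libraries, among them Ifnb1 and all the Ifna genes in the list. A count of 0 allows up to 3 counts, or 0.0942 to 0.161 CPM depending on the library. These genes are close copies of each other, so reads that fit several of them may not have been counted. Only Ifng and Ifnk passed the filter. Ifng, the gene of interferon gamma, stood at 7.56, 4.09 and 5.77 CPM in LN and 17.9, 22.2 and 20.1 in WT untreated skin (log2 1.79 ± 0.46 SE, edgeR adjusted p = 0.00373). With MC903 it fell to 3.4, 0.557 and 1.36 CPM in WT (log2 -3.50 ± 0.50 SE, edgeR adjusted p = 5.72e-04). In cKO it went from 26, 27.2 and 28 CPM to 8.08, 3.2 and 3.77 (log2 -2.43 ± 0.47 SE, edgeR adjusted p = 0.00447). All untreated skin libraries thus lay above all LN and MC903 libraries. Ifnk, a keratinocyte interferon, reached 0 to 1.69 CPM in untreated skin and was called in no comparison.

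Of 17 genes of the receptors and JAK-STAT signalling, 7 were higher and 5 lower in WT untreated skin than in LN, where 28.8% of all genes were called in each direction, so the share called lower was about that of all genes. Ifngr1, the ligand-binding receptor chain for interferon gamma, stood at 310, 295 and 167 CPM in LN and 1646, 1098 and 1436 in skin (log2 2.44 ± 0.22 SE, edgeR adjusted p = 1.59e-07). Jak2, a kinase of interferon gamma signalling, stood at 24.1, 17.1 and 22.1 CPM in LN and 265, 297 and 278 in skin (log2 3.73 ± 0.24 SE, edgeR adjusted p = 3.96e-09). Stat3 was higher (log2 2.23 ± 0.14 SE), and Ptpn6, the phosphatase SHP-1 that dampens such signals, was lower, at 409 to 434 CPM in LN and 39.9 to 46.8 in skin (log2 -3.27 ± 0.14 SE, edgeR adjusted p = 3.48e-11). The next genes were chosen for their roles after their values were seen. Ifnar1 was higher (log2 0.68 ± 0.16 SE) and its partner Ifnar2 lower (-0.60 ± 0.13), and Ifngr2 did not pass (-0.28 ± 0.16, adjusted p = 0.139). Socs1, a feedback inhibitor of JAK kinases, stood at 164, 95.8 and 116 CPM in LN and 462, 634 and 262 in skin (log2 1.85 ± 0.36 SE, edgeR adjusted p = 5.91e-04).

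Averaged over genotypes, 3 of these 17 genes fell with MC903 and none rose, against 12.3% and 12.8% of all genes, and those that fell include Socs1 (log2 -1.36 ± 0.25 SE, edgeR adjusted p = 0.00156) and Jak2 (-0.75 ± 0.15, adjusted p = 0.00232). Of 16 tested sensors and adaptors outside the 40 genes, 5 were higher and 9 lower in WT untreated skin than in LN, against 28.8% of all genes each way, so the share called higher was about that of all genes. Tmem173 (STING, the adaptor for cytosolic DNA sensing) stood at 435, 422 and 361 CPM in LN, 138, 101 and 142 in WT untreated skin and 225, 218 and 292 in WT MC903 skin. It was lower in untreated skin than in LN (log2 -1.68 ± 0.15 SE, edgeR adjusted p = 1.61e-07) and rose with MC903 in WT (0.95 ± 0.15, adjusted p = 9.77e-04) and cKO (0.83 ± 0.15, adjusted p = 0.00256). Irf5, a factor downstream of Toll-like receptors, was higher in WT untreated skin than in LN (log2 1.82 ± 0.18 SE, edgeR adjusted p = 3.55e-07).

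**Figure D5:**
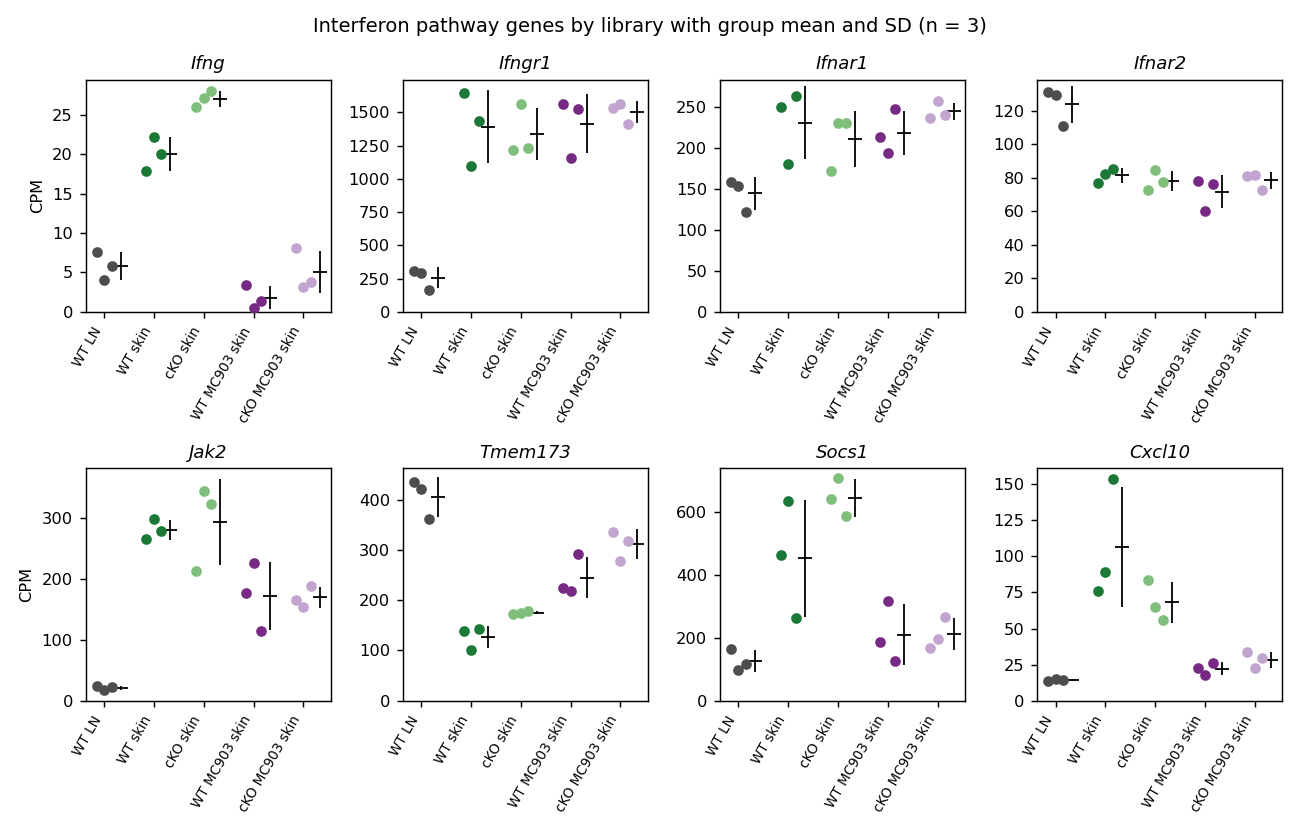
Points are the CPM of 8 pathway genes in each library and the bars beside them are the group mean ± SD (n = 3). Ifng and Cxcl10 are highest in untreated skin and Ifngr1 is high in all 4 skin groups, while Tmem173 is highest in LN at 361 to 435 CPM.

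A further 64 interferon-inducible genes outside the 40 were tested, and 41 were lower and 7 higher in WT untreated skin than in LN, against 28.8% of all genes each way. Epsti1 (log2 -2.20 ± 0.15 SE), Slfn5 (-2.35 ± 0.17), Phf11b (-2.98 ± 0.23) and Sp100, a nuclear body protein (-2.22 ± 0.19), had the smallest adjusted p-values. With MC903 averaged over genotypes, 18 of the 64 were higher and 10 lower, against 12.8% and 12.3% of all genes, so the share called lower was near that of all genes. Epsti1 stood at 27.2 to 33.3 CPM in WT untreated skin and 70.5 to 86.5 with MC903 (log2 1.34 ± 0.15 SE, edgeR adjusted p = 6.41e-05), and it also rose in cKO (1.45 ± 0.15, adjusted p = 3.54e-05). Cxcl10, a chemokine induced by interferon gamma, went from 76.3, 89 and 154 CPM to 22.6, 17.8 and 26.3 in WT (log2 -2.26 ± 0.25 SE, edgeR adjusted p = 7.81e-05) and fell in cKO as well (-1.26 ± 0.24, adjusted p = 0.00432). Ifitm2, a membrane protein that hinders viral entry, went from 14.8, 19.7 and 22.5 CPM to 79.9, 66.3 and 70.5 in WT (log2 1.93 ± 0.29 SE, edgeR adjusted p = 9.10e-04).

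In cKO against WT, 2 of the 64 genes were higher in untreated skin and none lower, against 0.398% and 0.405% of all genes. In MC903 skin edgeR called 0 of them, against 0.081% of all genes higher and 0.177% lower. Slfn8 stood at 32.7, 34.3 and 24.2 CPM in WT untreated skin and 49.2, 60.8 and 51.5 in cKO. Tnfsf10, the death ligand TRAIL, stood at 20.7, 16.8 and 20.1 CPM in WT untreated skin and 39.5, 30.9 and 39.6 in cKO. Both had an edgeR adjusted p of 0.0376 there, and both calls were lost without some single libraries (up to 0.141 and 0.154). Averaged over treatments, Slfn8 (log2 0.78 ± 0.12 SE, edgeR adjusted p = 0.00243), Tnfsf10 (0.82 ± 0.14, adjusted p = 0.00478) and Ifitm2 (1.24 ± 0.20, adjusted p = 0.00299) were the genes of the 64 called, all higher in cKO.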

How the data were processed

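RNA from sorted Tregs was isolated with Pico pure columns, made into libraries with SMART-Seq v4 and read as 75 bp single ends on a NextSeq 500, per the labels' protocols. The submitters' processing notes name TopHat2 2.0.6, the mm9 build and DESeq2. How reads were assigned to genes, and whether strand was used, is not given in the sources used here. The deposited table holds whole-number counts per gene for 24015 genes and 15 libraries. The authors also deposited a table of LN against skin with a score, a p-value raw and adjusted, a log2 fold change, its standard error and the mean normalised signal for each gene, which was used for 1 comparison of calls.

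The counts were fitted once with edgeR 4.0.16 in R 4.3.3 (TMM factors of 0.903 to 1.26, filterByExpr over the 5 groups, robust quasi-likelihood F test), leaving 13578 genes. P-values were adjusted by Benjamini-Hochberg over these genes, with a call at 0.05. The SE of a log2 change was derived from the fold change and the F statistic. The procedure was tested on simulated data. The outcome is not reported here, so it says nothing of the power of the genotype and interaction comparisons. Alternatives were relative log expression factors, DESeq2 1.42.0, no filter beyond 1 count, 50 counts in 3 libraries, the compared groups alone, a replicate block, sample-weighted limma-voom (limma 3.58.1), and leaving out each library in turn. The 40 genes, the gene lists and the markers were chosen with earlier results of these data known. Named genes were 19 genes followed through all groups, in LN comparisons the 8 called at the smallest adjusted p and those called higher, every gene called elsewhere, and at most 4 per pathway list. Replicates are labelled biological, and pairs of libraries within a group differed beyond sampling noise (chi-square per degree of freedom 14.2 to 91.7). Reads are PCR products without molecular identifiers, so limits from counts cover counting error only. Results of 2 further genes are not reported here.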

Additional observations from a re-analysis of the deposited data

How the results depend on the processing

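Under all 23 alternatives, 27 of the 34 calls between WT untreated skin and LN were kept, 27 of 35 between WT MC903 skin and LN, 3 of 8 for MC903 in WT, 1 of 5 for MC903 in cKO, 10 of 15 for MC903 averaged and 0 of 1 for genotype in untreated skin, and no called gene changed sign. Deviations of same-numbered libraries from their group means correlated between -0.277 and 0.223 over the genes tested. Libraries of different numbers were not compared in this way. Replicate 3 was the highest library in all 6 GTPases in WT untreated, WT MC903 and cKO MC903 skin. It was the highest in 3 of them in cKO untreated skin and in 0 in LN. Whether libraries of the same number were handled together was not tested. With the replicate block, 3 genes were higher and 30 lower in WT untreated skin than in LN, 1 and 34 in WT MC903 skin, 3 and 5 with MC903 in WT, 3 and 1 in cKO, 8 and 6 averaged, and 0 by genotype. Over all 13578 genes the block gave 3737 higher and 3813 lower in WT untreated skin, and 3428 and 3201 in WT MC903 skin. With MC903 it gave 613 and 619 in WT, 720 and 605 in cKO, and 1611 and 1514 averaged. By genotype it gave 46 and 44 in untreated skin, 9 and 25 in MC903 skin, and 105 and 95 averaged.

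The single gene higher in cKO untreated skin became 0 under the replicate block, limma-voom and the compared groups alone. DESeq2 gave 1 gene higher in cKO MC903 skin, against 69 of 13328 genes, and 3 by genotype averaged, against 278 of 13662. With MC903 in cKO it gave 7 higher and 2 lower, against 1154 and 1124 of 12997 genes. With the compared groups alone 0 genes were higher with MC903 in WT, against 218 of 12351 genes. Leaving out 1 library at a time gave 25 to 32 genes lower and 3 to 3 higher in WT untreated skin against LN, and 30 to 34 lower and 1 to 1 higher in WT MC903 skin. It gave 0 to 1 higher by genotype in untreated skin, in MC903 skin and averaged. For MC903 it gave 1 to 4 higher and 3 to 7 lower in WT, 0 to 5 and 1 to 2 in cKO, and 5 to 10 and 5 to 11 averaged.

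Among genes not called, Gbp2 in WT untreated skin against LN ranged from -0.15 to 0.46 on the log2 scale over the fits without 1 library, the lowest without WT skin replicate 3. In WT MC903 skin against LN, Isg15 ranged from -0.25 to 0.09 and Irgm2 from -0.29 to 0.11. Isg15 was at 0.05, 0.09 and 0.08 without LN replicate 1, LN replicate 2 and WT MC903 skin replicate 2, and Irgm2 to 0.02 and 0.11 without WT MC903 skin replicates 1 and 2. With LN replicate 3 and WT MC903 skin replicate 2 both left out, chosen after seeing the data, Irgm2 was at 0.08 and Stat2 at 0.03. The cause was not tested in these cases.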
